A study of Mus musculus with 3 samples.

Results

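The genes described here encode the signaling part of the B cell receptor and the proteins next to it: Cd79a, Cd79b, Cd81, Cd22, Lyn, Syk, Btk, Blnk and Plcg2. They were found by gene name, and all 9 were among the 27088 genes of the deposited table. In spleen B cells of mice with ovalbumin (OVA)-induced allergic rhinitis, the mRNA levels of the 9 genes differed little between SJMHE1 and PBS. As deposited, Cd79a was level, Plcg2 and Cd79b were lower, and the other 6 were 5.50% to 12.5% higher. Under 1 scaling Cd79b was not lower, and rescaling shifted all ratios by up to 0.083 on the log2 scale. Summed over the 9 genes, the level was 2144.89 FPKM (fragments per kilobase of exon and per 1000000 mapped fragments) with PBS and 2155.22 FPKM with SJMHE1, a difference of 0.482%. Cd79a and Cd79b made up 68.1% of the sum with PBS, and the other 7 genes together were 5.96% higher with SJMHE1. The difference of the sum depended on the scaling, and it was 6.43% with both libraries set to the same summed FPKM over all genes. As deposited, none of the 9 differed by as much as 1.19-fold. The ends of the range were Btk, with a change of 12.5%, and Plcg2, with a change of -8.01%.

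SJMHE1 is a peptide from the parasite Schistosoma japonicum, and the comparison asked what it did to the RNA of B cells in allergic mice. The PBS and SJMHE1 groups were female BALB/c mice, 6 weeks old at the start and 13 weeks old in the sample labels. Mice of both groups were sensitized intraperitoneally with 10 μg of OVA and 2 mg of aluminum hydroxide on days 0, 7 and 14, and received 100 μg of OVA into the nose on days 21 to 27 and again on days 29 to 35. On days 0, 14 and 28 they were injected with PBS or with 10 μg of SJMHE1, and spleens were taken on day 36. SJMHE1 was given in incomplete Freund's adjuvant and PBS was not, so that the peptide and the adjuvant cannot be told apart. B cells were sorted by flow cytometry, and the RNA of 3 mice per group was mixed. Each group therefore had 1 library, no replicate error and no test. The third group, Control, was not analysed here.

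The B cell receptor is a membrane immunoglobulin held by a pair of chains, Igα and Igβ, the products of Cd79a and Cd79b, which carry the signal into the cell. When antigen binds, Src family kinases such as Lyn phosphorylate tyrosines in the tails of Igα and Igβ, Syk docks there, and the adaptor Blnk brings Btk to the phospholipase Plcg2, which releases calcium and activates protein kinase C. Cd81 belongs to the coreceptor that lowers the threshold of this signal, and Cd22, once phosphorylated by Lyn, recruits phosphatases that damp it.

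The tyrosines on which this signal depends are shown first, as read from the protein-coding transcripts of GENCODE M21 (build GRCm38), because they are what separates the activating chains from the inhibitory receptor. The activation motif (ITAM) of Cd79a lies on the plus strand at chr7:24901296-24901469, across exons 4 and 5. That of Cd79b lies on the minus strand at chr11:106311867-106312012, across exons 5 and 6. Capitals mark the codons of the paired tyrosines, which are residues 182 and 193 of 220 in Igα. For Igβ they are residues 255 and 266 of the 288 in the longest annotated protein of Cd79b. Cd79b has 2 protein-coding transcripts, and the numbering in a shorter form of Igβ differs.
Cd79a: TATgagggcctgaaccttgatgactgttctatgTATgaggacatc
Cd79b: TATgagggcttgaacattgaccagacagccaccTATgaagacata
The stretches had 31 of 45 bases in common (68.9%). Cd22 held 5 matches to the pattern of the inhibitory motif (ITIM), of which 4 were in the last exons of its longest protein and 1 lay at residue 5, at the very start. The 4 are printed in the direction of transcription from the minus strand, with the tyrosine codon in capitals. They are residue 783 (exon 14, chr7:30867494-30867511), residue 817 (exon 15, chr7:30867033-30867050), residue 843 (exon 16, chr7:30866600-30866617) and residue 863 (exon 16, chr7:30866540-30866557) of 868.
Cd22 residue 783: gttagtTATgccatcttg
Cd22 residue 817: gtcactTACtcggtgata
Cd22 residue 843: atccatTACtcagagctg
Cd22 residue 863: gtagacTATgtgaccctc

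Both libraries were deep, with 48267168 counts for PBS and 51280237 for SJMHE1. The members were read 5516 to 84292 times each. Values below are FPKM, and each difference is the log2 ratio of SJMHE1 to PBS with a 95% interval from the exact (Clopper-Pearson) limits of the counts. Such an interval covers counting error only, not the spread between mice. In RNA of sorted cells, fewer cells of a type and less RNA per cell cannot be told apart.

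The signaling chains were among the most abundant transcripts of these cells. Cd79a (ENSMUSG00000003379, chr7:24897381-24902197) stood at 835.02 FPKM with PBS and 835.2 FPKM with SJMHE1, ranking 41 and 44 among all genes. Its log2 ratio was 0.0003, with an interval of -0.015 to 0.016 that included no difference. It was 0.083 when both libraries were rescaled to the same summed FPKM. Cd79b (ENSMUSG00000040592, chr11:106311341-106314762), the other chain of the pair, was below Cd79a in both libraries, at 625.0 FPKM with PBS and 594.35 FPKM with SJMHE1. The change of Cd79b was -4.90% (log2 ratio -0.07, interval -0.09 to -0.05), but it turned to a log2 ratio of 0.01 when both libraries were rescaled to the same summed FPKM. The chains pair one to one in the receptor, and the ratio of their mRNAs, Cd79a to Cd79b, was 1.34 (interval 1.32 to 1.35) with PBS and 1.41 (1.39 to 1.42) with SJMHE1. That shift was 0.07 on the log2 scale (0.05 to 0.10), larger than counting error, with no measure of how much it varies between mice. Membrane and secreted IgM share the gene Ighm, whose level was 4.93 times that of Cd79a with PBS and 5.13 times with SJMHE1. A stretch of the Cd79a transcript is shared with the gene Gm32220: 8.31% of its 50-base windows occur there too. Gm32220 was at 20.67 FPKM with PBS and 17.68 FPKM with SJMHE1, small beside Cd79a.

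The start of Cd79a is shown because it is the most abundant of the members and its promoter is known to be bound by EBF1, the factor that sets up the B lineage. The 134 bases before its start, on the plus strand at chr7:24897247-24897380 (RefSeq, GRCm38.p6), carry the letters CAAGGGA, printed in capitals.
Cd79a upstream: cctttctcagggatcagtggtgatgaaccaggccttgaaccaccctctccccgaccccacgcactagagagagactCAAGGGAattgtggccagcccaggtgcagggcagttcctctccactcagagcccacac
Searched on both strands, CAAGGGA occurred in 5.06% of 32851 RefSeq promoter windows of 300 bases and, among the members, in that of Cd79a only. Windows were found for 7 of the 9 members, with none for Cd79b or Lyn. The octamer ATGCAAAT occurred in 1.74% of all windows and in that of Blnk. The ETS core GGAAGT occurred in 23.8% of all windows and in those of Blnk, Cd79a and Syk. These letters were chosen after the sequence had been read, and a match is not a binding site.

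The surface partners of the receptor were both slightly higher in the SJMHE1 library. Cd22 (ENSMUSG00000030577, chr7:30865402-30880342), the sialic acid-binding inhibitory receptor whose motifs are printed above, was at 267.36 FPKM with PBS and 287.71 FPKM with SJMHE1, or 7.61% higher (log2 ratio 0.11, interval 0.09 to 0.12). Set against Cd79a, Cd22 stood at a ratio of 0.32 with PBS and 0.34 with SJMHE1, a log2 shift of 0.11 (0.08 to 0.13). Cd81 (ENSMUSG00000037706, chr7:143052739-143067934), the tetraspanin of the coreceptor, was the lowest of the 9 genes, at 34.89 FPKM with PBS and 38.96 FPKM with SJMHE1. It was 11.7% higher in the SJMHE1 library (log2 ratio 0.16, interval 0.11 to 0.21).

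The first kinases of the cascade stood at the middle of the order. Syk (ENSMUSG00000021457, chr13:52583173-52648792), which docks on the doubly phosphorylated ITAM, was at 120.42 FPKM with PBS and 127.04 FPKM with SJMHE1, 5.50% higher (log2 ratio 0.08, interval 0.06 to 0.09). Lyn (ENSMUSG00000042228, chr4:3678115-3813122), the Src family kinase that acts on both activating and inhibitory tails, was at 64.71 FPKM with PBS and 69.84 FPKM with SJMHE1, 7.93% higher (log2 ratio 0.11, interval 0.08 to 0.14). Both kinases were thus above their PBS level by more than counting error. Their own ratio, Syk to Lyn, was 1.86 with PBS and 1.82 with SJMHE1, a log2 shift of -0.03 whose interval (-0.07 to 0.003) included no difference. For Lyn, 15.7% of the 50-base windows of its protein-coding transcripts also occur in Gm11787, which was at 0.97 FPKM with PBS and 1.11 FPKM with SJMHE1.

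The 3 proteins that assemble around the adaptor did not differ in 1 direction. Btk (ENSMUSG00000031264, chrX:134542336-134583140), the Tec family kinase whose loss causes X-linked agammaglobulinemia in people, was at 57.83 FPKM with PBS and 65.04 FPKM with SJMHE1, the largest difference among the members (log2 ratio 0.17, interval 0.13 to 0.21). Blnk (ENSMUSG00000061132, chr19:40928927-40994535), the adaptor that joins Syk to Btk and Plcg2, was at 46.77 FPKM with PBS and 51.63 FPKM with SJMHE1, 10.4% higher (log2 ratio 0.14, interval 0.11 to 0.17). Plcg2 (ENSMUSG00000034330, chr8:117498291-117635142), the phospholipase that makes the calcium-releasing messenger, was at 92.89 FPKM with PBS and 85.45 FPKM with SJMHE1 (log2 ratio -0.12, interval -0.15 to -0.09). The mRNA of the phospholipase was thus lower while those of the adaptor and of Btk were higher. The ratio of Plcg2 to Btk was 1.61 with PBS and 1.31 with SJMHE1, a log2 shift of -0.29 (-0.34 to -0.24). Plcg2 had the lowest and Btk the highest log2 ratio of the members. That shift is therefore the widest between members by construction and restates the values above. The ratio of Plcg2 to Blnk was 1.99 with PBS and 1.66 with SJMHE1 (log2 shift -0.26, -0.30 to -0.22). The ratio of Blnk to Btk was 0.81 with PBS and 0.79 with SJMHE1, a log2 shift of -0.03 whose interval (-0.08 to 0.02) included no difference. All these ratios use the deposited lengths, on which the levels of different genes depend.

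**Figure D1:**
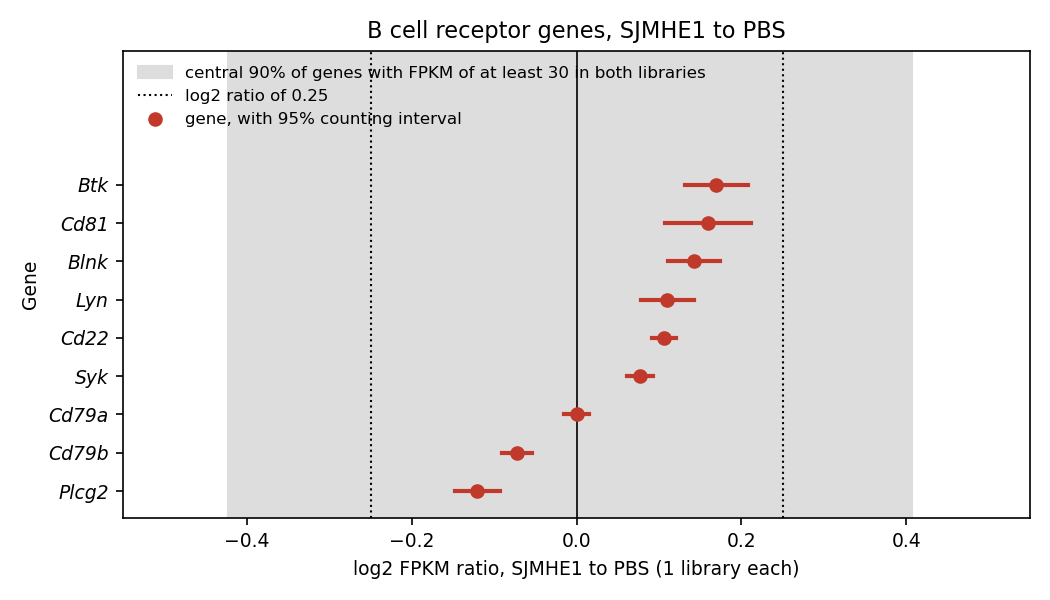
Log2 FPKM ratio of SJMHE1 to PBS for each of the 9 genes, 1 library per group; points are the ratios, bars the 95% counting intervals, the grey band the central 90% of the 1276 genes at 30 FPKM or more in both libraries, and dotted lines mark a log2 ratio of 0.25 in either direction. All points lie inside the dotted lines, from Plcg2 at -0.12 to Btk at 0.17.

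Across the 9 genes, 7 ratios were above 0 and 2 below, with a median of 0.11, as the plot of ratios shows. The counting interval lay above 0 for 6 genes and below 0 for 2, and it included 0 for Cd79a. With counts this deep even small differences clear counting error, and the share of all genes that did so was not computed. All 9 were among the 12433 genes compared, those that reached 1 FPKM in at least 1 library and were above 0 in both. None of the 9 passed a log2 ratio of 1, which 6% of these genes passed. None passed 0.25 (1.19-fold) either, which 39% of the compared genes passed. With both libraries rescaled to the same summed FPKM, Btk just passed it, at 0.2525. The members are abundant, and abundant genes have less counting error. Among the 1276 genes at 30 FPKM or more in both libraries, 25.6% passed 0.25 (11.2% higher and 14.4% lower), 1.88% passed 1 (0.862% higher and 1.02% lower), and the central 90% of ratios ran from -0.42 to 0.41. The median over all compared genes was -0.01, and over the abundant ones -0.05.

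**Figure D2:**
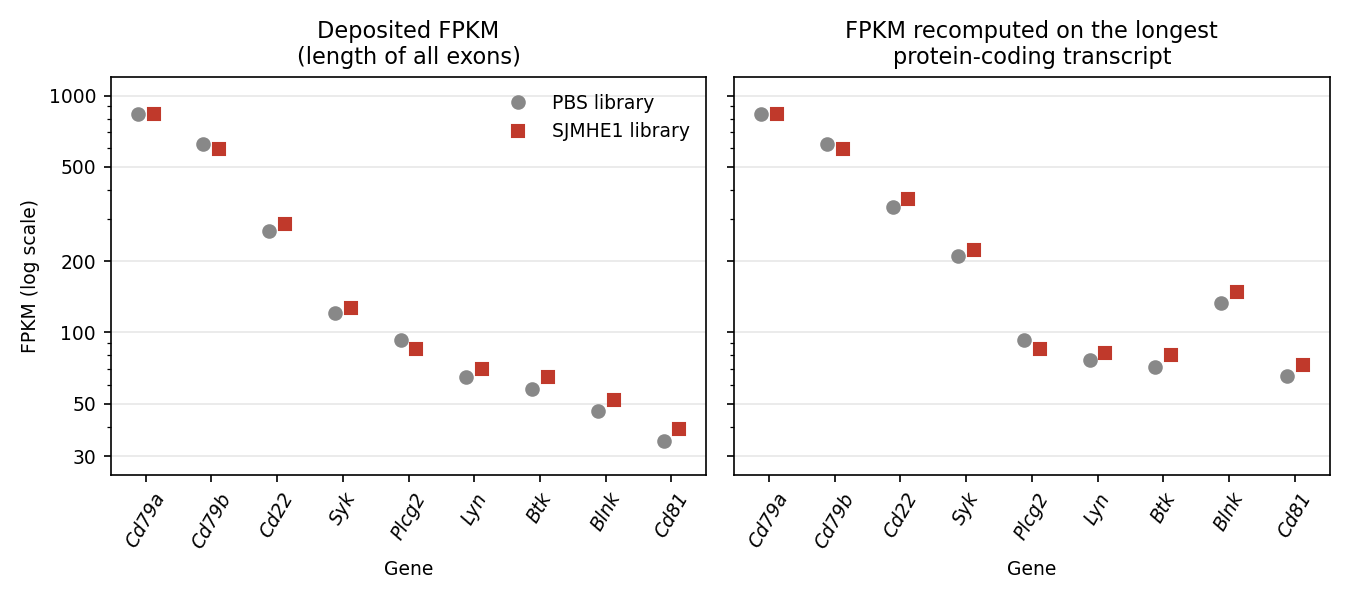
Level of each gene in the PBS library (circles) and the SJMHE1 library (squares), in FPKM on a log axis; left, as deposited, and right, recomputed on the length of the longest protein-coding transcript. The order is the same in both libraries on the left, and Blnk moves from 8 to 5 in the order on the right.

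The order of the levels did not differ between the libraries: Cd79a, Cd79b, Cd22, Syk, Plcg2, Lyn, Btk, Blnk and Cd81, from highest to lowest. The highest stood 23.9-fold above the lowest with PBS and 21.4-fold with SJMHE1, and no neighbours had overlapping counting intervals on the deposited scale. That scale depends on the length assigned to each gene. For every member the deposited FPKM followed from the count and the bases of all annotated exons together, which for Blnk are 2.86 times those of its longest protein-coding transcript (5991 against 2097 bases). On the transcript's length Blnk was at 133.62 FPKM with PBS and 147.5 FPKM with SJMHE1 and came after Syk, as the plot of levels shows. There Blnk stood above Btk (71.7 FPKM with PBS and 80.63 FPKM with SJMHE1) and above Plcg2 (92.89 and 85.45 FPKM). The order within the pairs Blnk to Btk and Plcg2 to Blnk was thus the reverse of that given above. Cd81, with 2879 bases of exons against 1533, was at 65.52 FPKM with PBS and 73.17 FPKM with SJMHE1 and stayed last. Plcg2, Cd79a and Cd79b had a single length on both scales. On the transcript scale Lyn (82.14 FPKM) and Btk (80.63 FPKM) could not be separated in the SJMHE1 library, where their intervals overlapped. Ratios between libraries do not depend on the length.

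Genes on the opposite strand overlap some members, and whether the counting used strand was not stated in the sources used here. Gm26857, which shares 11432 bases with the span of Lyn, and Gm27361, opposite Plcg2, had no values, so that their counts are unknown. Counts of the others were small: R74862, opposite Cd81, had 219 counts with PBS and 224 with SJMHE1, against 5516 and 6519 for Cd81. Gm15154, opposite Btk, had 47 with PBS and 56 with SJMHE1, against 9998 and 11903 for Btk. Opposite Lyn, 9430025C20Rik had 94 with PBS and 78 with SJMHE1, and opposite Cd22, Gm29439 had 6 with PBS and 17 with SJMHE1.

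Some relatives of the members that T cells use for their own receptor differed far more, as the plot of families shows. Zap70, the counterpart of Syk, was at 2.77 FPKM with PBS and 1.44 FPKM with SJMHE1 (log2 ratio -0.94). Lcp2, the counterpart of Blnk, was at 4.51 FPKM with PBS and 1.92 FPKM with SJMHE1 (log2 ratio -1.23). The ratio of Blnk to Lcp2 accordingly went from 10.4 to 26.9 and that of Syk to Zap70 from 43.5 to 88.2. The remaining pairs lay closer. Plcg1, used by T cells in place of Plcg2, was at 6.08 FPKM with PBS and 5.33 FPKM with SJMHE1, and the log2 shift of Plcg2 to Plcg1, 0.07, was within counting error (-0.01 to 0.15). Lck, the counterpart of Lyn, was at 27.92 FPKM with PBS and 25.19 FPKM with SJMHE1.

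**Figure D3:**
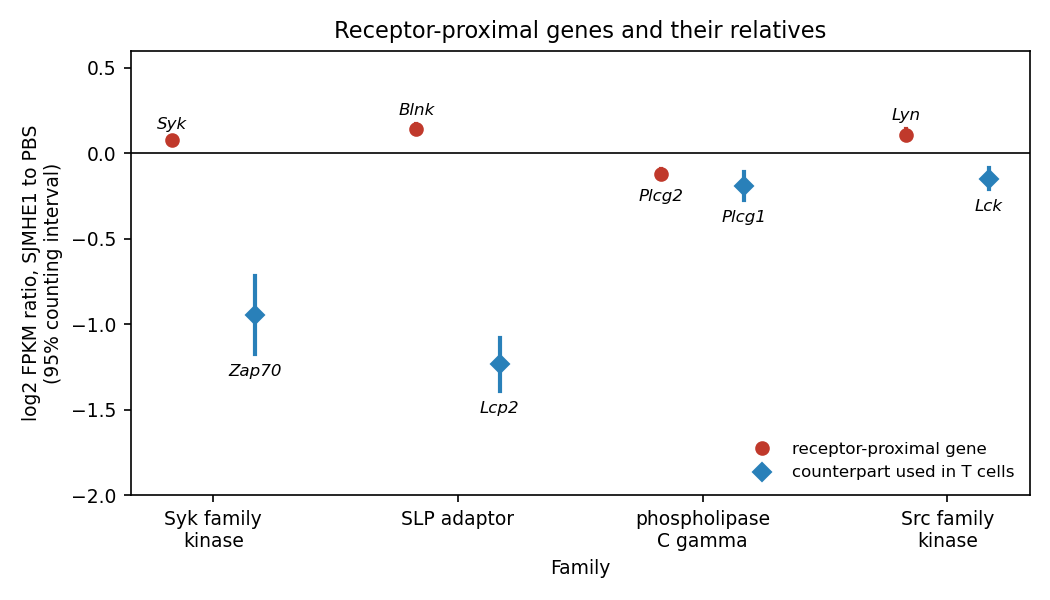
Log2 FPKM ratio of SJMHE1 to PBS for 4 receptor-proximal genes (circles) and the relative that T cells use (diamonds), with 95% counting intervals, 1 library per group. The B cell genes lie between -0.12 and 0.14, while Zap70 and Lcp2 lie at -0.94 and -1.23.

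Relatives that B cells themselves use were nearer to their PBS level. Blk, the Src family kinase most abundant here, was at 171.18 FPKM with PBS and 167.04 FPKM with SJMHE1, so that the ratio of Blk to Lyn was 2.65 with PBS and 2.39 with SJMHE1. Tec, the kinase next to Btk, was at 41.31 FPKM with PBS and 39.21 FPKM with SJMHE1, and the ratio of Tec to Btk was 0.71 with PBS and 0.60 with SJMHE1. Siglecg, an inhibitory lectin like Cd22, was at 104.22 FPKM with PBS and 111.54 FPKM with SJMHE1, a ratio to Cd22 of 0.39 in both. Among tetraspanins, Cd37 was the most abundant, at 278.4 FPKM with PBS and 268.86 FPKM with SJMHE1, 7.98 times and 6.90 times the level of Cd81.

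Markers of other cell types differed between the libraries too. Of 15 T cell receptor genes, 13 could be compared, of which 10 were lower past a log2 ratio of -1 and none was higher past 1 (median -1.47), against 3.57% and 2.43% of all compared genes. They included Cd4 at 4.25 FPKM with PBS and 1.28 FPKM with SJMHE1, Cd3g at 3.1 and 1.16 FPKM, Lat at 3.88 and 1.73 FPKM, and Cd8b1 at 1.09 and 0.14 FPKM. Where both libraries reached 1 FPKM, 7 of the 13 remained, with a median of -1.17. The summed level of T cell markers was 64.97 FPKM with PBS and 36.37 FPKM with SJMHE1. Much of that sum was Lck, at 27.92 FPKM with PBS and 25.19 FPKM with SJMHE1. The median log2 ratio of the 13 compared T cell markers was -1.73. Markers of NK cells summed to 18.87 and 7.55 FPKM, of dendritic cells to 8.97 and 4.0 FPKM, of macrophages to 126.34 and 72.65 FPKM, of neutrophils to 469.36 and 541.36 FPKM, of erythroid cells to 153.72 and 201.51 FPKM, and of plasma cells to 662.8 and 557.48 FPKM, each time with PBS first. Of all these markers, only Batf3, a dendritic cell factor, had no counts, in the SJMHE1 library. Sums of macrophage and neutrophil markers rested on a few abundant genes. Lyz2, a lysozyme gene, was at 88.79 FPKM with PBS and 37.4 FPKM with SJMHE1, while the median log2 ratio of the 11 compared macrophage markers was 0.24, with 5 higher and 4 lower past 0.25. S100a8 was at 73.55 and 114.96 FPKM and S100a9 at 196.02 and 266.48 FPKM, while the median of the 11 neutrophil markers was -0.22, with 2 higher and 5 lower past 0.25. Of all compared genes, 17.8% were higher and 21.2% lower past 0.25. Myeloid cells also use Syk, Lyn, Btk and Plcg2, and the part that other cells had in the members' values was not tested. The 12 B cell markers, by contrast, summed to 6813.88 and 6648.14 FPKM, most of it from Cd74 at 4642.73 and 4297.17 FPKM. By ratio, 11 of the 12 lay within a log2 ratio of 0.25, and the exception was Cr2 (0.68). The purity of the sorted B cells was not tested.

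The rest of the pathway was divided into lists by role. In 6 lists holding 97 compared genes, 9 were higher and 12 lower past a log2 ratio of 0.25, or 21.6% in all, and the median was -0.0045. The shares among all compared genes were 17.8% higher and 21.2% lower. Among the 1276 genes at 30 FPKM or more in both libraries they were 11.2% and 14.4%, or 25.6% in all. The counts of each list below are to be read beside these shares. The coreceptor and surface list stood highest, with a median of 0.19 over 12 genes and 5 of them higher past 0.25. It included Cr2, the complement receptor of the coreceptor, at 136.27 FPKM with PBS and 218.29 FPKM with SJMHE1 (log2 ratio 0.68, interval 0.67 to 0.69). Cd38 (30.19 and 43.41 FPKM, log2 ratio 0.52) was higher too. Ighm was at 4116.26 and 4284.43 FPKM (log2 ratio 0.06). Cr1l, a complement regulator, was the lowest of this list, at 10.7 and 9.66 FPKM.

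Inhibitory receptors and phosphatases, the list to which Cd22 signals, were split. Of 17 genes 16 could be compared, with 2 higher and 3 lower past 0.25 and a median of -0.04. Ptpn6, the phosphatase SHP-1 that docks on the ITIMs of Cd22, was at 211.14 FPKM with PBS and 264.09 FPKM with SJMHE1 (log2 ratio 0.32, interval 0.30 to 0.34), and its ratio to Cd22 was 0.79 with PBS and 0.92 with SJMHE1. Cd72, another inhibitory receptor that recruits this phosphatase, was at 127.52 and 151.94 FPKM (log2 ratio 0.25). The one gene of these lists past a log2 ratio of 1 was Cd5, which T cells also express. It was at 1.94 FPKM with PBS and 0.74 FPKM with SJMHE1 (log2 ratio -1.39). Cd5 reached 1 FPKM in the PBS library only, and it would not be compared with that minimum set in both libraries.

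**Figure D4:**
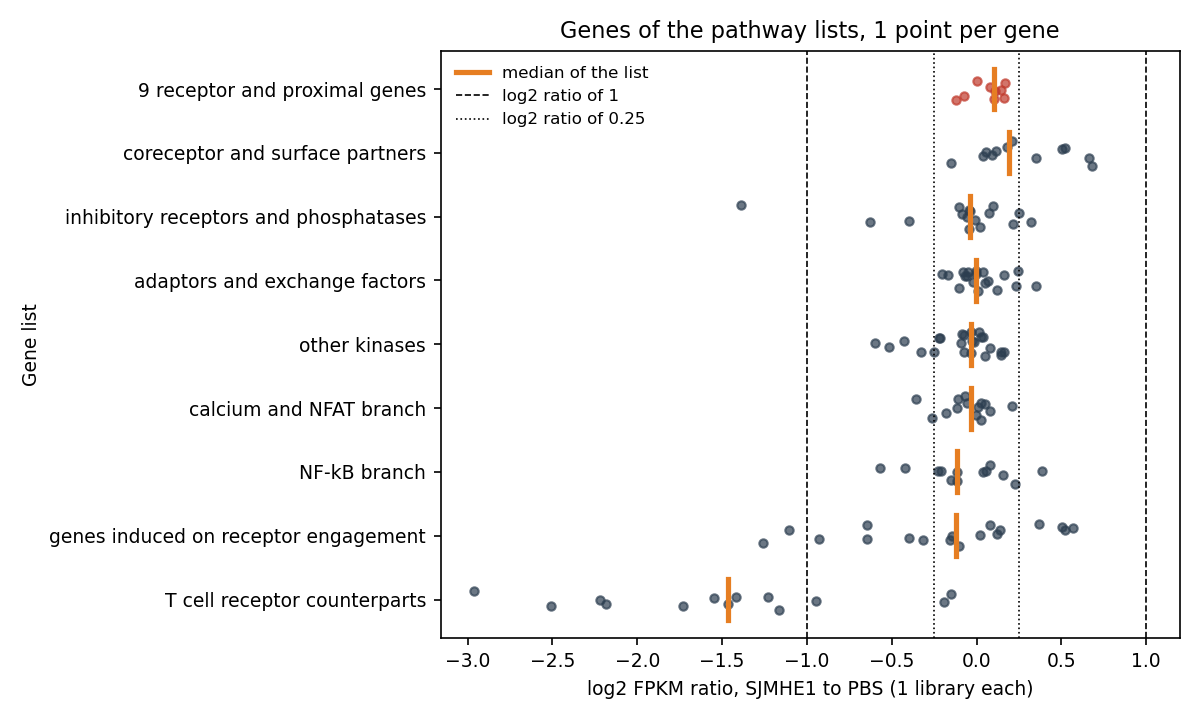
Log2 FPKM ratio of SJMHE1 to PBS for every compared gene of the receptor genes and of 8 further lists, 1 point per gene; orange bars are list medians, and lines mark log2 ratios of 0.25 and 1. The 9 receptor genes span -0.12 to 0.17, the T cell receptor counterparts have a median of -1.47, and the genes induced on engagement spread from -1.26 to 0.57.

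Median log2 ratios were -0.004 for the adaptors, -0.04 for the kinases and -0.03 for the calcium branch. The NF-kB branch was further from 0, at -0.12. Of 19 adaptors and exchange factors, Rasgrp3, which activates Ras, was the single gene past 0.25, at 48.94 FPKM with PBS and 62.42 FPKM with SJMHE1 (log2 ratio 0.35). Its relative Rasgrp1 was the lowest, at 37.71 and 32.78 FPKM (log2 ratio -0.20), and the adaptor Grb2 the most abundant, at 94.93 and 89.96 FPKM. Among 23 further kinases and their subunits, none was higher and 5 were lower past 0.25, led by Pik3r5, a regulatory subunit of phosphoinositide 3-kinase, at 8.27 and 5.47 FPKM (log2 ratio -0.60).

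Downstream of Plcg2, the calcium and NFAT list had 14 genes, none higher and 2 lower past 0.25, with a median of -0.03. The store-operated channel gene Orai2 was at 15.8 FPKM with PBS and 12.34 FPKM with SJMHE1 (log2 ratio -0.36), and the calcium release channel Itpr3, which answers to the product of Plcg2, at 42.02 and 48.51 FPKM (log2 ratio 0.21). In the NF-kB list of 13 genes (median -0.12), 1 was higher and 2 lower past 0.25. Tnfaip3, the inhibitor A20, was at 84.63 FPKM with PBS and 57.06 FPKM with SJMHE1 (log2 ratio -0.57), Rel at 104.77 and 78.08 FPKM (log2 ratio -0.42), and Nfkb2 at 46.02 and 60.19 FPKM (log2 ratio 0.39).

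Genes that receptor engagement is known to induce did not go one way. Of 18, 4 were higher and 7 lower past 0.25, 2 of these lower past a log2 ratio of -1, and the median was -0.12. Of all compared genes, 17.8% were higher and 21.2% lower past 0.25, and 3.57% were lower past -1. The early factors Egr1, Fos and Jun were higher: Egr1 was at 305.06 FPKM with PBS and 452.37 FPKM with SJMHE1, Fos at 731.15 and 1050.32 FPKM, and Jun at 619.94 and 880.3 FPKM. The nuclear receptors Nr4a1 (184.63 and 117.85 FPKM) and Nr4a3 (2.65 and 1.23 FPKM), the surface protein gene Cd83 (219.67 and 140.28 FPKM) and the chemokine gene Ccl3 (9.25 and 3.86 FPKM) were lower. The spread of this list, from -1.26 to 0.57, was wider than that of the receptor genes, as the plot of lists shows.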

How the data were processed

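RNA of sorted spleen B cells was sequenced for the Control, PBS and SJMHE1 groups, with 3 mice mixed per library and 1 library per group. The authors deposited whole-number counts per gene, not normalized, and FPKM values rounded to 2 decimals, which scale those counts by gene length and library size. The submitters' processing notes name bcl2fastq 2.0, HISAT2, StringTie, DESeq2, limma and the build mm10. The counter and its strand setting are not given in the sources used here. The table also holds gene annotation and coordinates. Names of 2 columns of per-sample values matched no sample, and these were not used.

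The measure was the log2 ratio of FPKM, SJMHE1 to PBS, without a pseudocount, for genes that reached 1 FPKM in 1 library and were above 0 in both. Intervals are 95% Clopper-Pearson limits of the counts and cover counting error only. A gene was called past a log2 ratio of 1, and a smaller step of 0.25 was counted too. The quasi-likelihood test for counts could not be fitted with 1 library per group. Totals, lengths and motifs used Python 3.11.15, pandas 2.3.3, numpy 2.4.6, scipy 1.17.1 and matplotlib 3.10.9, and the scaling factors came from R 4.3.3 with edgeR 4.0.16 (TMM) and DESeq2 1.42.0. Scripts were tested on simulated data. Sequences and lengths are from GENCODE M21 and RefSeq promoters (GRCm38.p6). Of the table's identifiers, 27025 were in M21, and 8 of the 9 members had the same position there, Btk ending elsewhere.

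The members and the lists were chosen with earlier results of these data known. Genes named are the members and, per list, up to 5 past a log2 ratio of 1, the highest and lowest ratio and the highest FPKM, and the most abundant relatives, though some of these are not reported here. Cd38, Cd72, Rel, Jun, Nr4a1, Cd83, and the overlapping or sequence-sharing genes were named after their values were seen. The FPKM minimum of 30, the transcript lengths and the KEGG list were also added after seeing the data.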

Additional observations from a re-analysis of the deposited data

How the results depend on the processing

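With 1 pooled library per group, nothing here measures the spread between mice, and no library could be left out. No paired analysis was possible because neither group had more than 1 library, so that no fit with a block could be made. Alternatives that needed the Control group were not run. Plcg2 was lower and Btk, Cd81, Blnk, Lyn, Cd22 and Syk were higher in SJMHE1 under every scaling tried, while Cd79a and Cd79b, close to 0, changed side. Equal summed FPKM shifted all ratios by 0.083 and made Cd79b 0.01 higher in place of lower. Cd79a was -0.0049 with counts scaled to a sum of 1000000, 0.0833 with equal sums and 0.045 with DESeq2's factors. With equal sums the members ran from -0.0374 to 0.2525, and all 9 left their counting intervals. With DESeq2's factors 8 of the 9 did so, without the 50 most abundant genes 5, and with TMM 4. Under equal sums 1 member, Btk (0.25), passed 0.25. The summed FPKM of the 9 genes differed by 6.43% with equal sums, 2.64% without the 50 most abundant genes and 1.36% centred on the median, settings chosen for it after seeing the data. Genes higher and lower past a log2 ratio of 1 numbered 100 and 146 with a pseudocount of 1, 1367 and 2018 with no filter, 101 and 151 where both libraries reached 1 FPKM, 52 and 93 with at least 5 in 1, 89 and 171 for protein-coding genes, and 11 and 13 with at least 30 in both. Past 0.25 they numbered 4896 and 6198 with no filter, 936 and 1150 with at least 5, 1465 and 1726 for protein-coding genes, and 143 and 184 with at least 30. List medians moved as follows. With equal sums they were 0.19 (receptor genes), 0.28 (coreceptors), 0.0431 (inhibitory), 0.0790 (adaptors), 0.0477 (kinases), 0.0517 (calcium), -0.0334 (NF-kB) and -0.0403 (induced genes). Without the 50 most abundant genes they were 0.14 (receptor genes), 0.22 (coreceptors) and -0.0047 (kinases). With TMM they were 0.13, 0.22 and -0.0098 for the same lists. With DESeq2's factors they were 0.15, 0.24 and 0.0094 for these, 0.0407 for adaptors and -0.0787 for induced genes. The coreceptor median was 0.28 over protein-coding genes. At 30 FPKM or more in both libraries the medians were 0.0707 (inhibitory), -0.22 (NF-kB) and 0.0202 (induced genes). At 5 or more they were -0.0406 (induced genes) and -0.17 (T cell counterparts, of which only 2 of 13 remained). The T cell counterparts were at -0.92 with a pseudocount of 1 and at -1.17 over the 7 for which both libraries reached 1 FPKM. Per count, not per length, Cd79a to Cd79b was 1.36 with PBS and 1.43 with SJMHE1. The causes were not tested.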

Other observations

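The deposited annotation assigns 69 genes to the KEGG B cell receptor signaling pathway, a list taken up after seeing the data. Of these 67 could be compared, with 8 higher and 8 lower past a log2 ratio of 0.25 and a median of -0.004. Among all compared genes 17.8% were higher and 21.2% lower past 0.25. Among those at 30 FPKM or more in both libraries the shares were 11.2% and 14.4%. Without the 9 receptor genes the median over 58 genes was -0.04. Its lowest ratio was that of Mapk3, the kinase ERK1, at 16.57 FPKM with PBS and 11.61 FPKM with SJMHE1 (log2 ratio -0.51), and its highest that of Cr2. Further tetraspanins differed more than Cd81: Tspan33 was at 0.89 and 1.5 FPKM (log2 ratio 0.75) and Cd9 at 5.72 and 4.5 FPKM (log2 ratio -0.35). Siglech, a lectin of plasmacytoid dendritic cells related to Cd22, was at 2.14 FPKM with PBS and 0.39 FPKM with SJMHE1.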
